A study of Mus musculus with 24 samples.

Results

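Cyclic AMP signalling was followed through 34 genes in brain tissue of wild-type mice after olfactory bulbectomy, in which the olfactory bulbs are taken out by surgery, and of wild-type mice after a sham operation. The genes were taken by symbol and comprised 7 adenylyl cyclases, 14 phosphodiesterases, 6 subunits of protein kinase A, 4 A-kinase anchoring proteins and 3 genes of the CREB step. All 34 symbols matched an Ensembl identifier, among 55487 gene identifiers in each count table. Polyadenylated RNA of 3 tissues had been sequenced in 24 libraries. The bulbectomy group had 4 libraries from hippocampus, 3 from cortex and 2 from cerebellum, and the sham group had 5 from each tissue. The labels give no age, sex, strain or time after surgery, and they do not say which libraries came from the same mouse, so p-values measure only the spread between these libraries. The series title places the model beside Alzheimer's disease and depression.

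Adenylyl cyclases make cyclic AMP when receptors activate the stimulatory G protein, and phosphodiesterases break it down. Cyclic AMP binds the regulatory subunits of protein kinase A (PKA) and frees the catalytic subunits. Anchoring proteins (AKAPs) bind the regulatory subunits and hold the kinase close to its substrates. PKA phosphorylates the transcription factor CREB, which with its CRTC coactivators drives activity-dependent transcription in neurons, and in the hippocampus this pathway is a classical component of synaptic plasticity and memory.

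Promoter windows from RefSeq on build GRCm38.p6, each running from 250 bases before to 30 bases after an annotated start, are shown for the cyclases and the phosphodiesterase that passed the test in hippocampus and for the PKA subunits whose levels separated the groups there. Capitals mark the core cyclic AMP response element, TGACG or its reverse complement CGTCA; the full element TGACGTCA holds both, overlapping. The windows lie at chr16:4420469-4420748 on the minus strand (Adcy9), chr12:4133147-4133426 on the plus strand (Adcy3), chr13:108653927-108654206 on the plus strand (Pde4d), chr8:83972728-83973007 on the plus strand (Prkaca), chr3:146812917-146813196 on the minus strand (Prkacb) and chr11:109650699-109650978 on the plus strand (Prkar1a).
Adcy9: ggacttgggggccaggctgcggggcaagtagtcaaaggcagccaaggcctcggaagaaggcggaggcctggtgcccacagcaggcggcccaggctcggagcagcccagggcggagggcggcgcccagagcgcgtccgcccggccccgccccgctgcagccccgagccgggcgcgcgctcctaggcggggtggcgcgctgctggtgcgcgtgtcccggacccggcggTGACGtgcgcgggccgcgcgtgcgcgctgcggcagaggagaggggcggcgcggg
Adcy3: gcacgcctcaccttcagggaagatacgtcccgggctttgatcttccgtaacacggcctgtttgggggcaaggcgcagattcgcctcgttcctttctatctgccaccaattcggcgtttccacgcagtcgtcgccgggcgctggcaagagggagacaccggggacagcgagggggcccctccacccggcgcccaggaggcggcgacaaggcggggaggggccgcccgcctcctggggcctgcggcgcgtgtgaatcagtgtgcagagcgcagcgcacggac
Pde4d: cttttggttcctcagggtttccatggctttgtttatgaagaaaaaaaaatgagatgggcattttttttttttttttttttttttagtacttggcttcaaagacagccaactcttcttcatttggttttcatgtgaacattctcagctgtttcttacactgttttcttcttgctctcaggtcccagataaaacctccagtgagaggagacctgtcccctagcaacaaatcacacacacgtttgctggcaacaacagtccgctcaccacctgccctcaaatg
Prkaca: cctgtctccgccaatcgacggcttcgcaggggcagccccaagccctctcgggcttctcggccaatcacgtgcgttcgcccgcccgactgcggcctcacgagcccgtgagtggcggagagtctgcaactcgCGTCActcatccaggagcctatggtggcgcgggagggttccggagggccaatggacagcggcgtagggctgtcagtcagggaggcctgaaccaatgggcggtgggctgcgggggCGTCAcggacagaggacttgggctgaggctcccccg
Prkacb: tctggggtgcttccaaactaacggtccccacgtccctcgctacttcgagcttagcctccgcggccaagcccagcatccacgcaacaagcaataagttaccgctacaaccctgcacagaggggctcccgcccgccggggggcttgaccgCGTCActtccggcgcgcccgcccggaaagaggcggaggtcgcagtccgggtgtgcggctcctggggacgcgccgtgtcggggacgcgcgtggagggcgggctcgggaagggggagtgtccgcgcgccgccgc
Prkar1a: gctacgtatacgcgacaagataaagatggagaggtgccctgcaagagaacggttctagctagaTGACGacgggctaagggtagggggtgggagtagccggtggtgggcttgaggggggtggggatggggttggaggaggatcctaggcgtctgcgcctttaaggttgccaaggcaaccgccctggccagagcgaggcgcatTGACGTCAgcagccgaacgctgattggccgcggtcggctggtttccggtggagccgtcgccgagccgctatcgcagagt

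The Adcy9 and Prkacb windows each held 1 core, which began 24 and 102 bases before the start. The Prkaca window held 2 cores. The Prkar1a window held 3, of which a pair formed a full element that began 49 bases before the start. Of the 6 windows of Prkar1a this one was chosen because it holds that element. The others held 0 or 1 core and no full element. For the remaining genes the first window is shown, of 2 for Adcy3 and Prkaca and of 3 for Prkacb. The Adcy3 and Pde4d windows held none, and the Pde4d window was the poorest in G and C of these windows, at 40.7% against 79.3% for Adcy9. Windows were found for 28 of the 34 genes, 65 windows in all. Of these, 15 (23.1%) held a core on either strand, against 19.9% of all 32851 windows of this length, and 1 (1.54%) held the full element, against 1.74% of all windows. A match in these windows describes their letters and not a bound site.

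Assigned reads per library ranged from 3255661 to 138963332 in hippocampus, both extremes being sham libraries (sham 1 and sham 4), with 8145624 to 9608811 reads in the others. Cortex libraries held 10073878 to 17052728 reads and cerebellum libraries 10400540 to 20230673. Levels of marker lists are given below as the mean log2(CPM + 0.5) of their genes, CPM being counts scaled to library size. Genes of cerebellar granule cells stood at 7.84 to 9.48 in cerebellum, and at 2.94 to 4.44 in bulbectomy and 2.61 to 2.97 in sham hippocampus. In hippocampus, genes of CA pyramidal cells stood at 5.11 to 5.33 in bulbectomy and 3.88 to 5.62 in sham libraries. Dentate granule cell genes stood at 3.17 to 3.73 in bulbectomy and 2.06 to 4.14 in sham hippocampus. A group of 12 striatal marker genes stood apart in hippocampus sham 1 and sham 2, at 6.12 and 6.38, against 2.48 to 2.93 in the bulbectomy libraries and 2.16 to 2.64 in the other sham libraries, and 11 of the 12 could be tested, all with negative log2 fold changes and none called. Genes of thalamus and habenula stood at 3.91 to 4.71 in the hippocampus bulbectomy libraries and at 2.19 to 3.51 in the sham libraries, with 11 of 12 tested genes positive and 5 of them (Rora, Gpr151, Tac2, Chrnb4 and Gng8) called higher. Cerebellum sham 1 and cortex bulbectomy 1 also stood apart from the rest of their groups in the genes below. For some of the genes that these libraries move, the value without them is given below. Other fold changes move too. In hippocampus without sham 1 and sham 2, the log2 fold changes were -0.50 for Adcy1, 0.13 for Pde4a and -0.03 for Pde4b. Those of Pde8a and Akap9 were -0.31 and -0.45 in that setting.

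In hippocampus, bulbectomy libraries held less messenger RNA of the cyclases Adcy9 and Adcy3 and of the cyclic AMP phosphodiesterase Pde4d, and of the 33 genes tested none was called higher. A call is an adjusted p below 0.05 in edgeR's quasi-likelihood test, with Benjamini-Hochberg adjustment over all 13985 genes tested in this tissue, of which 1.0% were called lower and 0.551% higher. DESeq2 called 9 members, Prkaca higher and Adcy3, Adcy9, Pde2a, Pde4d, Prkacb, Prkar1a, Akap5 and Akap6 lower, beside 6.83% of all genes. In edgeR, 10 members had positive and 23 negative log2 fold changes, with a median of -0.58 against 0.02 over all genes tested. At an unadjusted p below 0.05 stood 15 members of 33, against 20.0% of all genes tested. In bulk tissue, fewer cells of a type and less RNA per cell cannot be told apart.

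Adcy9 (ENSMUSG00000005580, chr16:4287529-4420498 in GRCm38) encodes a membrane cyclase that is weakly sensitive to forskolin. It stood at 9.37, 13.3, 12.3 and 10.1 CPM in the bulbectomy libraries, against 27.0, 18.3, 29.8, 35.9 and 24.3 CPM in the sham libraries. Every bulbectomy library lay below every sham library. The means were 11.2 ± 1.83 and 27.1 ± 6.50 CPM (SD, n = 4 and n = 5), which put the fitted log2 fold change at -1.27, with an SE of 0.22 (edgeR adjusted p = 0.0137). The call held in 12 of 16 settings (adjusted p between 2.446e-05 and 0.0785) and was lost without bulbectomy 1, 2 or 4 (0.0596, 0.0526 and 0.0785) and with the replicate block (0.0619).

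Adcy3 (ENSMUSG00000020654, chr12:4133103-4213525) encodes the cyclase of olfactory cilia and of the primary cilia of neurons. Its bulbectomy libraries held 25.8, 18.7, 22.4 and 17.9 CPM, against 37.3, 32.9, 44.4, 34.8 and 39.9 CPM in the sham libraries. The groups did not overlap here either, and the log2 fold change was -0.83 ± 0.17 (edgeR adjusted p = 0.0354). Of its exon bases 22.1% overlap Cenpo on the opposite strand, and how the counting treated strand is not stated in the sources used. The call of Adcy3 held in 10 of 16 settings, with adjusted p between 0.00053 and 0.130. It was lost without any of the bulbectomy libraries 1 to 4 (0.0569, 0.130, 0.0911 and 0.129), without sham 4 (0.0514) and with the replicate block (0.0816).

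Of the other 5 cyclases none was called. The calcium- and calmodulin-stimulated Adcy1 and Adcy8 had log2 fold changes of -0.32 (edgeR adjusted p = 0.381) and 0.03 (0.936). Adcy2 and Adcy7, which G protein beta-gamma subunits stimulate, had 0.16 (0.548) and -0.33 (0.551). Adcy6, which calcium inhibits, had -0.29 (0.467). Among the cyclases 2 log2 fold changes were positive and 5 negative, with a median of -0.32.

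**Figure D1:**
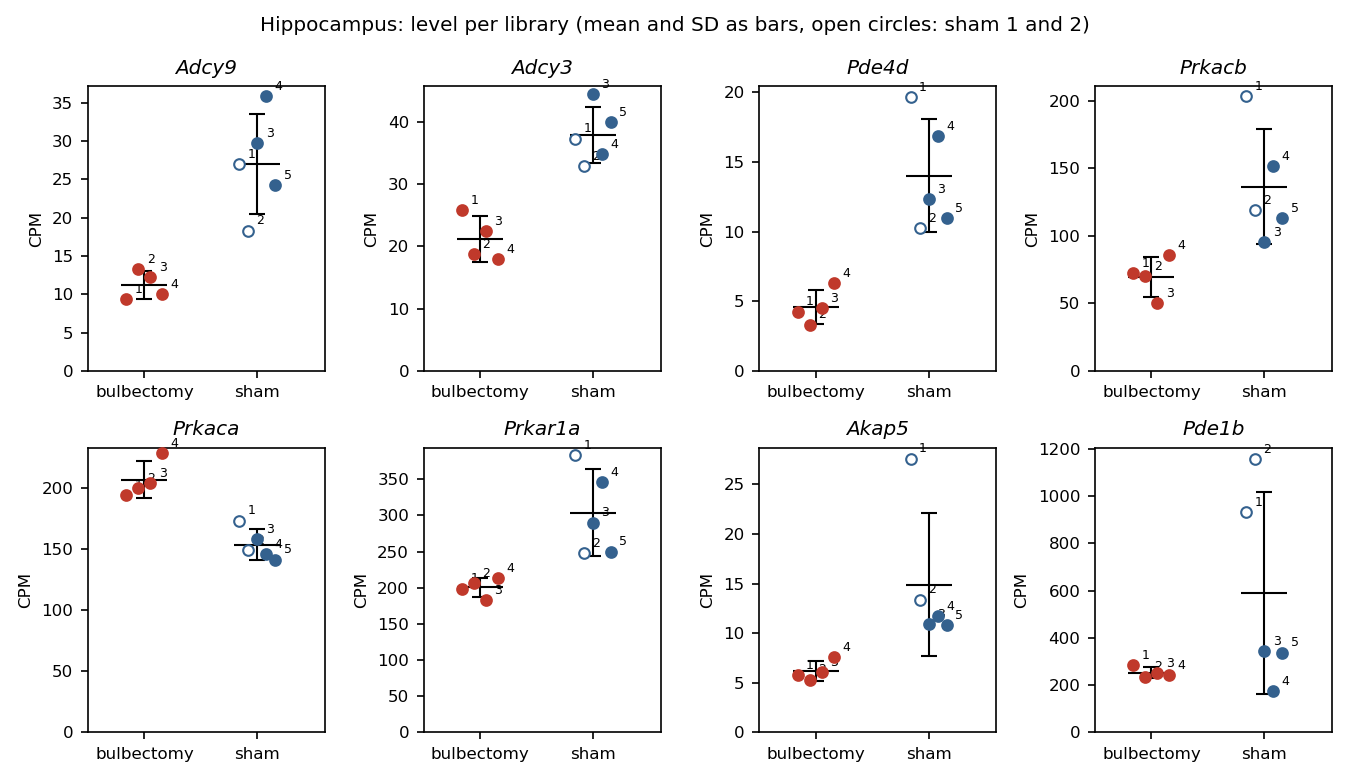
CPM of 8 genes in each hippocampus library, bulbectomy left and sham right, with bars for the mean and SD and open circles for sham 1 and sham 2. Bulbectomy libraries lie wholly below sham libraries for Adcy9, Adcy3, Pde4d, Prkacb, Prkar1a and Akap5 and wholly above them for Prkaca, while Pde1b in sham 1 and sham 2 (933 and 1156 CPM) lies far above the other 7 libraries.

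Pde4d (ENSMUSG00000021699, chr13:108449948-109953461) encodes a cyclic AMP-specific, rolipram-sensitive phosphodiesterase. It stood at 4.25, 3.31, 4.53 and 6.28 CPM in the bulbectomy libraries, against 19.6, 10.3, 12.4, 16.9 and 11.0 CPM in the sham libraries. The bulbectomy libraries were all lower than the lowest sham library. These levels rest on 28 to 53 reads per bulbectomy library and on 69 to 2912 reads per sham library. The log2 fold change was -1.60 ± 0.27 (edgeR adjusted p = 0.0137), and it was called in 13 of 16 settings, with adjusted p between 1.493e-05 and 0.0692. The call was lost without bulbectomy 1 (0.0569), without bulbectomy 2 (0.0692) and in 1 fit of all 24 libraries (0.0509).

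The other cyclic AMP-specific phosphodiesterases did not pass the test. Pde4a and Pde4b, of the same rolipram-sensitive family, had log2 fold changes of 0.31 (edgeR adjusted p = 0.352) and -0.34 (0.426). Of the rolipram-insensitive enzymes, Pde7a had 0.04 (0.954), Pde7b -1.04 (0.308), Pde8a -0.58 (0.283) and Pde8b -0.59 (0.214). Pde4c was too low to test.

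The 6 phosphodiesterases that split both cyclic AMP and cyclic GMP were all negative, with a median log2 fold change of -1.20, and none was called. Pde1b, which calcium and calmodulin activate and which is abundant in striatal neurons, showed how far single libraries set these values. It stood at 285, 236, 251 and 242 CPM in the bulbectomy libraries, against 933, 1156, 345, 174 and 338 CPM in the sham libraries. The sham libraries lay on both sides of the bulbectomy libraries, and the high values were those of sham 1 and sham 2, where the 12 striatal marker genes were also high. The log2 fold change of Pde1b was -1.22 ± 0.52 (edgeR adjusted p = 0.234) with all libraries and -0.17 without these 2.

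Pde7b, with 27.6 CPM in each of sham 1 and sham 2 and 4.43 to 10.4 CPM in the other sham libraries, had a log2 fold change of -0.08 without them, and Pde8b had -0.17. The median of the 6 dual-specificity enzymes was -0.82 without both libraries. Pde2a, the cyclic GMP-stimulated enzyme, had a log2 fold change of -1.72 ± 0.51 (edgeR adjusted p = 0.0971) and held only 4 to 9 reads in each bulbectomy library, and 64.3% of its exon bases lie in a second gene model on the same strand, so its counts are uncertain.

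**Figure D2:**
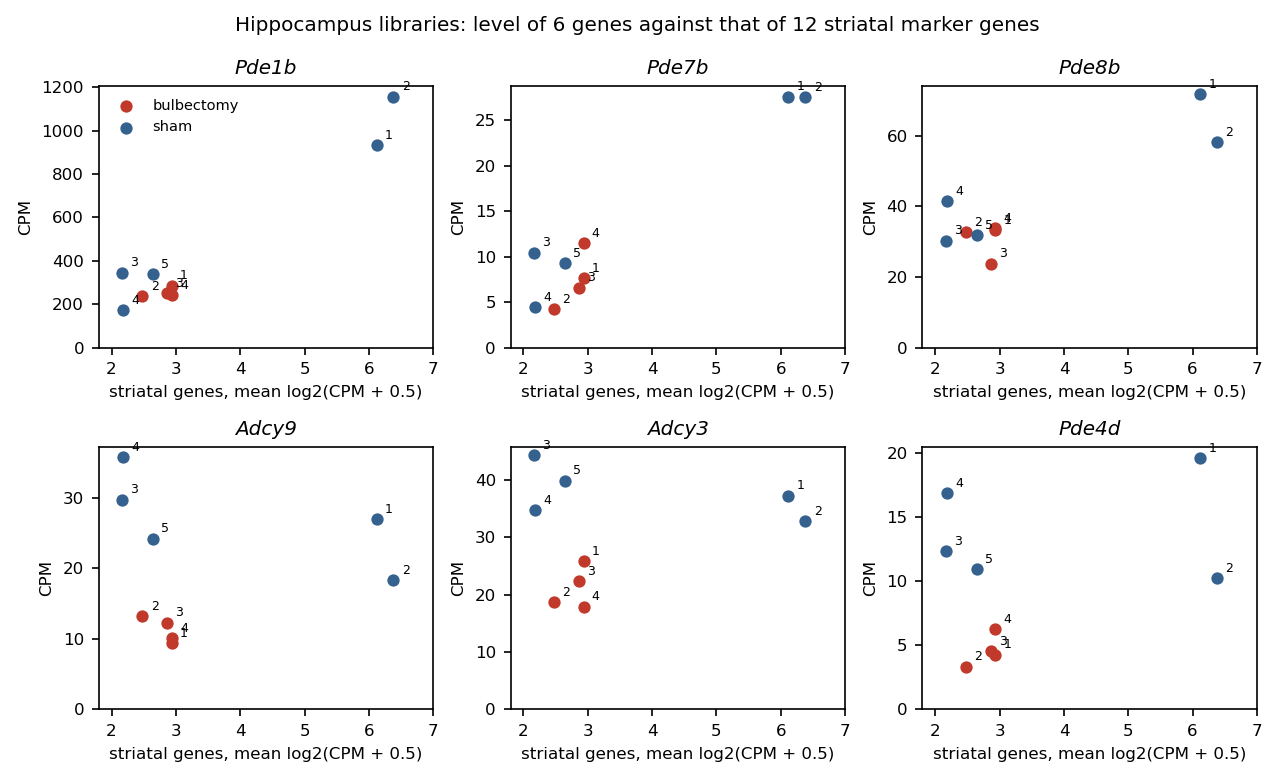
CPM of 6 genes against the mean log2(CPM + 0.5) of 12 striatal marker genes in the 9 hippocampus libraries, bulbectomy and sham in separate colours. Pde1b, Pde7b and Pde8b are highest in the 2 sham libraries with a striatal level above 6, whereas Adcy9, Adcy3 and Pde4d are higher in all 5 sham libraries than in the 4 bulbectomy libraries at any striatal level.

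Without sham 1 and sham 2, Adcy9, Pde4d and Adcy3 were still called lower, with log2 fold changes of -1.42, -1.56 and -0.90 (edgeR adjusted p = 0.00303, 0.00929 and 0.0238). Akap6, which anchors PKA at the nuclear envelope, was then called too (-0.86, adjusted p = 0.0321). The 4 genes stood beside 2.48% of all genes tested that were called in either direction, and the median of the members was -0.31. The part that thalamic, habenular or cerebellar RNA has in these differences was not tested.

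The PKA catalytic subunits had log2 fold changes of opposite sign in hippocampus, and neither was called. Prkaca, the widely expressed C-alpha subunit (ENSMUSG00000005469, chr8:83972993-83996443), stood at 194, 199.8, 204 and 228 CPM in the bulbectomy libraries, against 173, 149, 158, 146 and 141 CPM in the sham libraries. Prkacb, the C-beta subunit (ENSMUSG00000005034, chr3:146729574-146812990), stood at 72.4, 70.0, 49.9 and 85.9 CPM, against 203, 119, 95.3, 152 and 113 CPM in the sham libraries. Neither gene's groups overlapped, Prkaca being higher and Prkacb lower in the bulbectomy libraries.

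The log2 fold change was 0.43 ± 0.14 for Prkaca (edgeR adjusted p = 0.115) and -0.97 ± 0.23 for Prkacb (0.0509). Prkacb was called in 6 of 16 settings and Prkaca in 1. The log2 ratio of Prkaca to Prkacb in CPM was 1.42, 1.51, 2.03 and 1.41 in the bulbectomy libraries, and -0.23, 0.32, 0.73, -0.06 and 0.32 in the sham libraries. The ratio was higher in every hippocampus bulbectomy library than in every hippocampus sham library. In cerebellum it was 1.35 and 1.55 in bulbectomy and -0.62 to 0.95 in sham libraries, also without overlap. In cortex it overlapped, at -0.68 to 0.94 in bulbectomy and -0.94 to -0.05 in sham libraries. The exons of Prkaca span 2488 bases and those of Prkacb 8772, and fold changes over all genes varied with exon length.

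Among the regulatory subunits, Prkar1a (RI-alpha; ENSMUSG00000020612, chr11:109649405-109669656) stood at 199, 207, 183 and 214 CPM in the bulbectomy libraries, against 384, 248, 290.0, 346 and 250.1 CPM in the sham libraries. Its groups did not overlap, and its log2 fold change was -0.60 ± 0.17 (edgeR adjusted p = 0.0853). The neuronal RI-beta gene Prkar1b, which shares 8.95% of its exon bases with another gene model on the same strand, had 0.21 (0.544), the RII-alpha gene Prkar2a 0.18 (0.589) and the RII-beta gene Prkar2b -1.0 (0.215). Prkar2b held 26.7 CPM in sham 1 and 5.22 to 8.65 CPM in the other sham libraries, against 4.36 to 6.16 CPM in the bulbectomy libraries, and its log2 fold change without sham 1 and sham 2 was -0.34.

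All 4 anchoring proteins had negative log2 fold changes, with a median of -0.92 and no call. Akap5, a postsynaptic scaffold that also binds calcineurin (ENSMUSG00000021057, chr12:76324891-76334153), stood at 5.78, 5.33, 6.08 and 7.58 CPM in the bulbectomy libraries, against 27.6, 13.4, 10.9, 11.7 and 10.8 CPM in the sham libraries. The sham values were all higher, that of sham 1 by the widest margin, and the log2 fold change was -1.24 ± 0.30 (edgeR adjusted p = 0.0547). Akap6, the centrosomal and Golgi anchor Akap9 and Akap11 had -0.88 (0.116), -0.86 (0.156) and -0.97 (0.168), and sham 1 was again the highest library for each.

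At the CREB step no gene was called. Creb1, the transcription factor itself, had a log2 fold change of 0.43 ± 0.26 (edgeR adjusted p = 0.366), and its coactivators Crtc1 and Crtc2 had 0.07 (0.862) and 0.19 (0.658). In all, 1 member lay wholly above the sham libraries in hippocampus (Prkaca), against 4.97% of all genes tested, and 6 lay wholly below them (Adcy3, Adcy9, Pde4d, Prkacb, Prkar1a and Akap5), against 4.86%.

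**Figure D3:**
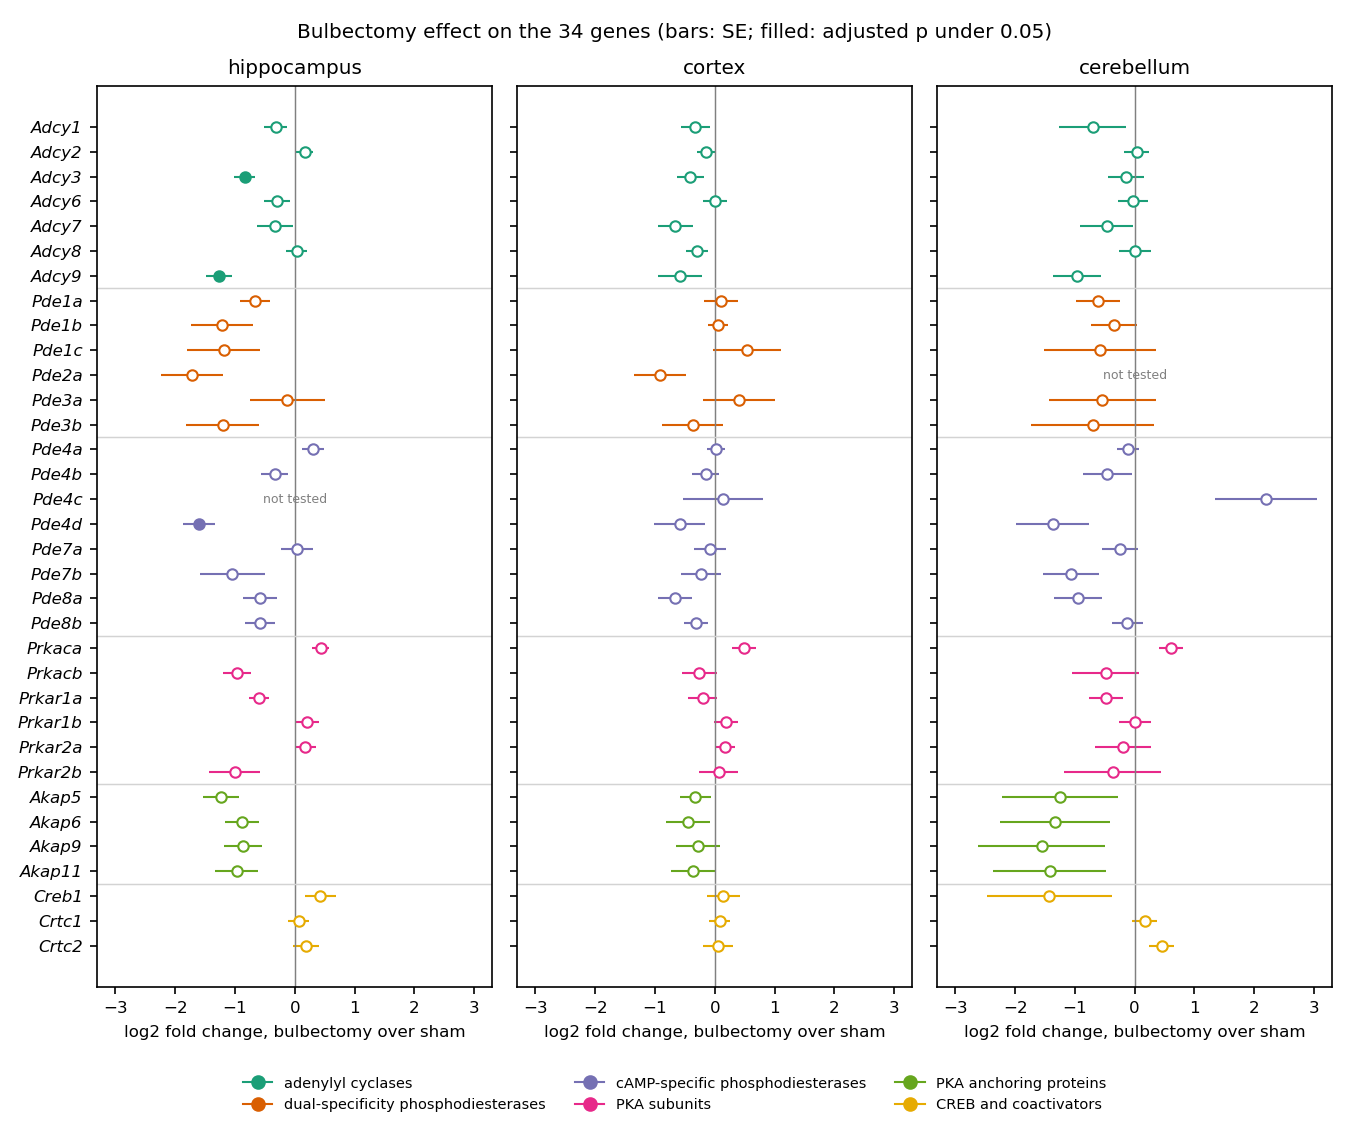
Log2 fold change of bulbectomy over sham, with its SE, for the 34 genes in hippocampus, cortex and cerebellum, coloured by role; filled points have an adjusted p under 0.05. Only Adcy9, Adcy3 and Pde4d in hippocampus are filled, and Prkaca lies above 0 in each tissue (0.43, 0.50 and 0.61).

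Genes with long exons tended towards lower log2 fold changes in every tissue. Over genes, which are not independent replicates, Spearman's rho between the log2 fold change and merged exon length was -0.33 in hippocampus (13983 genes), -0.26 in cortex (14841 genes) and -0.26 in cerebellum (15282 genes). In hippocampus the shortest decile of genes (median 1187 bases) had a median log2 fold change of 0.26, and the longest decile (12608 bases) one of -0.25. The members tested there had a median exon length of 6824 bases, against 4420 for all genes tested, and the rho over members was -0.16 in hippocampus, -0.09 in cortex and -0.58 in cerebellum (33, 34 and 33 genes). With a smooth trend on exon length and GC content removed, an alternative chosen after seeing the data, 11 members were positive and 22 negative, with a median of -0.48. Adcy9, Pde4d and Adcy3 were still called lower (log2 -1.36, -1.37 and -0.86, edgeR adjusted p = 0.0114, 0.00829 and 0.0140), Prkacb and Akap5 were called too (0.0457 and 0.0495), and 3.14% of all genes tested were called in either direction. Prkaca stood at 0.17 (0.608) in that setting. The median of the members moved to -0.10 in cortex and -0.13 in cerebellum with the trend removed, against -0.17 and -0.47 without its removal.

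**Figure D4:**
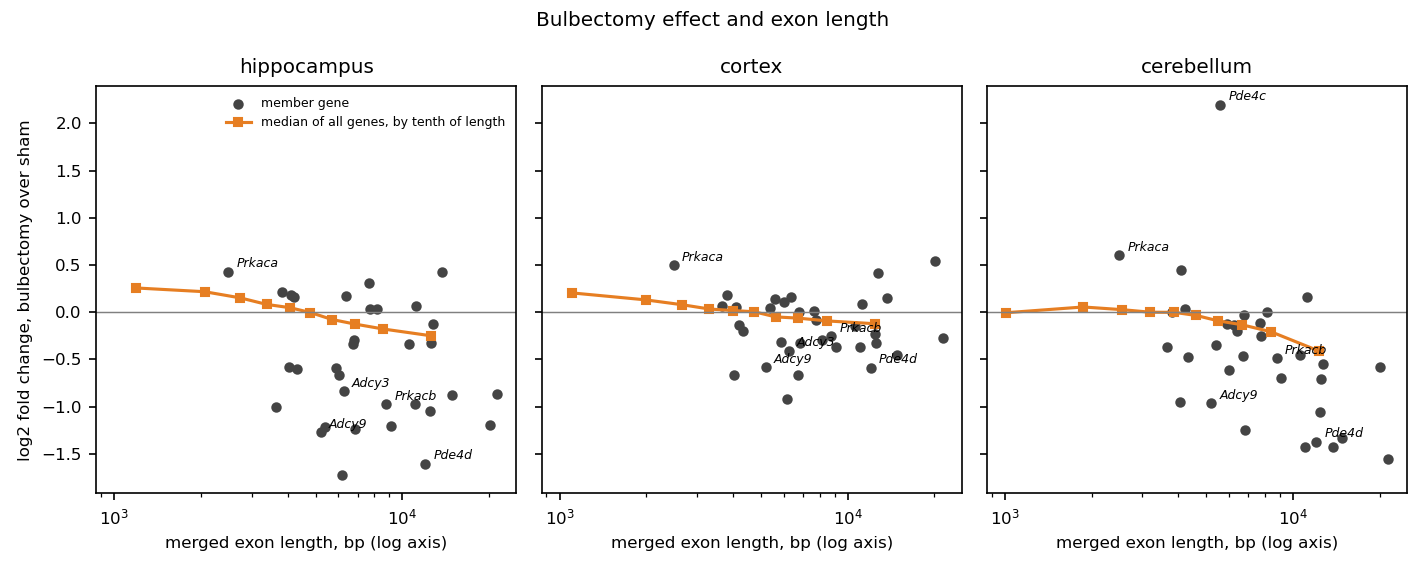
Log2 fold change of bulbectomy over sham against merged exon length (log axis) in the 3 tissues, with the tested genes of the 34 as points and a line for the median of all genes in each decile of length. The line is lower in the longest than in the shortest decile in each tissue, at -0.25 against 0.26 in hippocampus.

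Among listed genes of the rest of the pathway, a single gene was called in hippocampus. Sik2, a salt-inducible kinase that holds CRTC coactivators in the cytoplasm and that PKA inhibits, ranged from 0.83 to 1.85 CPM (median 1.36) in the bulbectomy libraries, against 4.16 to 6.26 CPM (median 4.81) in the sham libraries. The groups did not overlap, and the log2 fold change was -1.91 ± 0.32 (edgeR adjusted p = 0.0137). It was the only call among the 11 tested genes of the CREB family and its regulators, of which 4 were positive and 7 negative.

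None was called among 10 tested CREB target genes (4 positive, 6 negative), where Junb and Egr1, immediate early genes, had -0.73 (edgeR adjusted p = 0.0597) and -0.63 (0.0847). The remaining 7 tested AKAP genes were all negative without a call, and Akap1, the mitochondrial anchor, had -0.54 (0.0977). Of 7 G protein genes 1 was positive and 6 negative, with Gnai1 at -0.55 (0.168) and Gnaz, the positive gene, at 0.47 (0.190), both encoding inhibitory alpha subunits. Of 4 tested genes of the remaining cyclases and phosphodiesterases 1 was positive (Adcy4, 0.68, 0.221) and 3 were negative, among them Pde10a, a phosphodiesterase abundant in striatal neurons, at -2.89 (0.171). Of 10 genes for protein kinase inhibitors, Epac proteins and HCN channels, 4 were positive and 6 negative, and Rapgef4, which encodes a cyclic AMP-activated exchange factor, had -0.86 (0.0801). In cortex and cerebellum no gene of these lists was called.

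In cortex none of the 34 genes was called, and bulbectomy and sham libraries overlapped for each of them. Of all 14847 genes tested there 0.0202% were called higher and 0% lower, and 2.20% and 1.44% lay wholly above and wholly below the sham libraries. At an unadjusted p below 0.05 stood 3 members in edgeR's test (Prkaca, Pde8a and Adcy7), against 5.91% of all genes, and DESeq2 called none. In all, 14 members were positive and 20 negative, with a median log2 fold change of -0.17.

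Prkaca stood at 144, 265 and 178 CPM in the cortex bulbectomy libraries, against 129, 122, 156, 128 and 159 CPM in the sham libraries, a log2 fold change of 0.50 ± 0.20 (edgeR adjusted p = 0.773). Bulbectomy 1 lay within the sham range. For Adcy9 the same library stood on the other side of its group, the bulbectomy libraries holding 38.8, 9.40 and 11.7 CPM, against 30.5, 27.1, 33.5, 27.5 and 31.9 CPM in the sham libraries. Pde4d likewise held 28.2, 7.31 and 5.46 CPM in bulbectomy libraries, against 23.8, 17.0, 19.4, 18.8 and 24.7 CPM in sham libraries.

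For both genes bulbectomy 1 was above every sham library and the other bulbectomy libraries were below every sham library. With all libraries their log2 fold changes were -0.58 (edgeR adjusted p = 0.875) and -0.59 (0.879). Without cortex bulbectomy 1 they were -1.51 (0.00492) and -1.70 (0.00791), Adcy1 was called lower as well (-0.76, adjusted p = 0.0331), and 3.79% of all genes tested were called. Adcy7 stood at 5.51, 2.56 and 4.09 CPM in the cortex bulbectomy libraries, against 5.57, 7.35, 5.35, 7.43 and 6.55 CPM in the sham libraries. The other genes of small p were Pde8a, Pde2a and Adcy3, and the log2 fold changes of Adcy7, Pde8a, Pde2a and Adcy3 were -0.66 ± 0.29, -0.66 ± 0.28, -0.92 ± 0.44 and -0.41 ± 0.22, with edgeR adjusted p of 0.798, 0.787, 0.844 and 0.848. By role, 1 cyclase was positive and 6 were negative, 4 PKA subunits were positive and 2 negative, all 4 anchoring proteins were negative (median -0.34) and all 3 genes of the CREB step were positive. Without bulbectomy 1, all 7 cyclases were negative, the anchoring proteins had a median of -0.85 and 1 gene of the CREB step was negative, and over all members 9 were positive and 25 negative, with a median of -0.39. The log2 fold changes of Pde2a and Adcy3 were -1.51 and -0.73 in that setting (edgeR adjusted p = 0.0975 and 0.0544).

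Over genes, the deviation of cortex bulbectomy 1 correlated with exon length at 0.40, against -0.23 and -0.39 in the other 2 cortex bulbectomy libraries. The cortex sham libraries ran from -0.10 to 0.32. In hippocampus the correlation ran from -0.29 to -0.06 in bulbectomy libraries and from -0.20 to 0.38 in sham libraries. With the exon length and GC trend removed, Adcy9 and Pde4d in cortex had log2 fold changes of -0.58 and -0.60. Their edgeR adjusted p was 0.702 and 0.632. What sets cortex bulbectomy 1 apart in these genes was not tested.

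In cerebellum, with only 2 bulbectomy libraries, none of the 33 genes tested was called and every adjusted p was 0.9998. Of all 15295 genes tested, 0.0131% were called higher and 0% lower. At an unadjusted p below 0.05 stood 4 members in edgeR's test (Prkaca, Pde4c, Adcy9 and Pde8a), against 2.97% of all genes, and DESeq2 called no member. Of the members 7 were positive and 26 negative, with a median of -0.47 against -0.06 over all genes.

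Prkaca stood at 249 and 187 CPM in the cerebellum bulbectomy libraries, against 164, 111, 147, 143 and 150.4 CPM in the sham libraries. Both bulbectomy libraries were higher than every sham library, and the log2 fold change was 0.61 ± 0.20 (edgeR adjusted p = 0.9998). Adcy9 stood at 14.5 and 13 CPM, against 47.1, 17.0, 24, 23.5 and 22.7 CPM in the sham libraries, with both bulbectomy libraries lower and sham 1 far above the rest (log2 -0.97 ± 0.41). Pde4c, a cyclic AMP-specific enzyme of low level in brain, had 13 and 19 reads in the bulbectomy libraries, against 0, 2, 1, 6 and 5 in the sham libraries (log2 2.20 ± 0.86). Every bulbectomy count was higher than every sham count.

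Pde8a stood at 4.91 and 4.77 CPM in the cerebellum bulbectomy libraries, against 11.5, 8.83, 6.81, 13.7 and 6.18 CPM in the sham libraries, and its log2 fold change was -0.95 ± 0.40. Pde7b stood at 3.10 and 2.93 CPM, against 10.7, 3.66, 5.17, 6.81 and 5.16 CPM in the sham libraries (-1.06 ± 0.47). For both rolipram-insensitive enzymes the bulbectomy libraries lay below the lowest sham library. The anchoring proteins Akap6, Akap9 and Akap11 had log2 fold changes of -1.33, -1.55 and -1.42 with all libraries and of -0.28, -0.25 and -0.33 without sham 1, and Akap5 had -1.25 and could not be tested without it.

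Wholly above the sham libraries of cerebellum lay Pde4c, Prkaca and Crtc2, against 5.97% of all genes tested, and wholly below them lay Adcy9, Pde4d, Pde7b and Pde8a, against 4.93%. Sham 1 moved many of these values. Without it 13 members were positive and 19 negative, with a median of -0.14, the log2 fold change of Adcy9 was -0.68 and that of Pde4d was -0.84 in place of -1.37, and none of the 32 members tested was called among 0.237% of all genes.

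Whether the effect of bulbectomy differed between tissues was tested in 1 fit of all 24 libraries. No member and no gene (0% of 16564 tested) passed for any pair of tissues in edgeR's test, and the adjusted p of each member was 1. At an unadjusted p below 0.05 stood 1 member between hippocampus and cortex (Pde1b), 3 between hippocampus and cerebellum (Pde4c, Adcy3 and Creb1) and none between cortex and cerebellum, against 2.81%, 3.09% and 1.67% of all genes. The difference of Pde1b in log2 fold change was -1.30 with all libraries and -0.25 without hippocampus sham 1 and sham 2. Between hippocampus and cerebellum, that of Creb1 was 1.72, and 0.56 without cerebellum sham 1, while that of Adcy3 was -0.73, and -0.62 without that library. The calls in hippocampus are thus not shown to be particular to it.

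The sham libraries gave the levels of the pathway in each tissue, and tissue comparisons that follow share these libraries. Their CPM is on the scaling over all sham libraries. Levels between genes are given as CPM per kilobase of merged exon. Prkar1b was the highest of the 34 in each tissue, at 243 ± 47.3, 387 ± 51.5 and 187 ± 52.7 CPM per kilobase in hippocampus, cortex and cerebellum (SD, n = 5 each). In hippocampus Pde1b stood at 117 ± 85.3, Prkar1a at 75.7 and Prkaca at 66.2. Without sham 1 and sham 2 Pde1b stood at 56.2 ± 18.2 (n = 3), below Prkar1a at 73.2 and Prkaca at 63.6, so its place in the order was set by those libraries. The lowest were Pde3a (0.0971) in hippocampus, Pde1c (0.0312) in cortex and Pde2a (0.0135) in cerebellum. Without hippocampus sham 1 and sham 2 the lowest in hippocampus was Pde1c (0.0735), with Pde3a at 0.0799. The level of Pde2a is uncertain, since 64.3% of its exon bases lie in a second gene model.

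**Figure D5:**
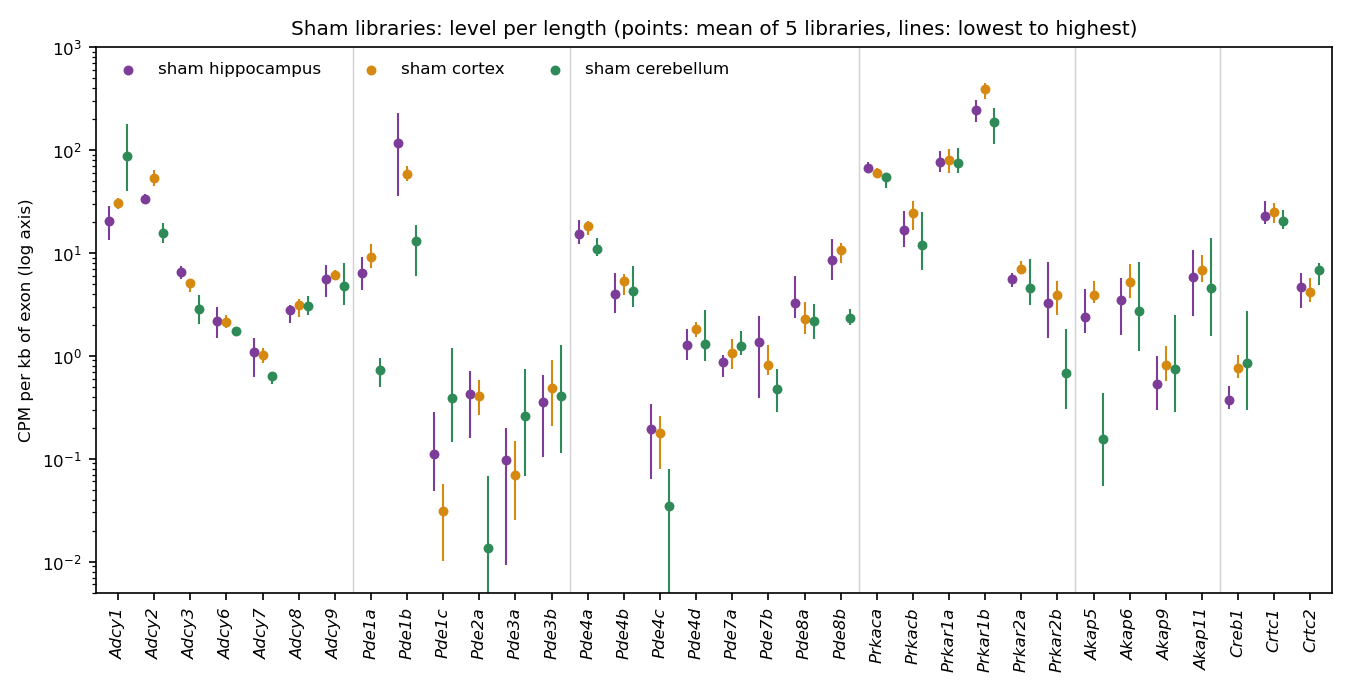
Sham levels of the 34 genes in CPM per kilobase of exon (log axis) in hippocampus, cortex and cerebellum, as the mean of 5 libraries with a line between the lowest and the highest library, which the lower axis limit cuts where a library is at 0. Prkar1b is the highest gene in each tissue, and Akap5, Pde1a and Pde2a lie lower in cerebellum than in hippocampus and cortex.

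The makeup of the cyclases differed most in cerebellum. Adcy1 provided 28.0% of the summed CPM per kilobase of the 7 cyclases in hippocampus, 30.2% in cortex and 72.2% in cerebellum, and Adcy2 provided 46.8%, 52.5% and 15.4%. Without cerebellum sham 1 the shares in cerebellum were 68.8% for Adcy1 and 17.6% for Adcy2. In CPM, Adcy1 stood at 243, 168, 282, 361 and 224 in hippocampus sham libraries and at 418, 333, 357, 379 and 424 in cortex, against 2256, 505, 913, 922 and 907 in cerebellum. Every cerebellum library was above every hippocampus and cortex library. The log2 differences were -2.11 ± 0.31 for hippocampus minus cerebellum (edgeR adjusted p = 7.549e-05) and -1.53 ± 0.31 for cortex minus cerebellum. Without cerebellum sham 1 they were -1.665 and -1.106. Between hippocampus and cortex Adcy2 was the only member called, lower in hippocampus at 139, 130.4, 159, 149.7 and 126 CPM, against 253, 187, 268, 213 and 205 CPM in cortex (log2 -0.68 ± 0.15, edgeR adjusted p = 0.0200). The tissues did not overlap. Of all genes tested 2.09% were called higher and 1.21% lower in hippocampus than in cortex. The call of Adcy2 held in 16 of 21 settings and was lost without hippocampus sham 5 (0.0619), cortex sham 1 (0.0597), cortex sham 3 (0.0669) or both hippocampus sham 1 and sham 2 (0.0940), and without the expression filter (0.0520).

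Between hippocampus and cortex, Adcy3 lay wholly above and Adcy2, Prkar1b, Prkar2a and Creb1 wholly below, against 3.18% and 3.61% of all genes tested, and 5 members stood at an unadjusted p below 0.05, against 13.5%. Between hippocampus and cerebellum, 8 members lay wholly above and 2 wholly below, against 9.97% and 8.38%. Between cortex and cerebellum 13 lay wholly above and 2 wholly below, against 13.1% and 12%. At an unadjusted p below 0.05 stood 18 members in each comparison with cerebellum, against 38.0% for hippocampus and 43.7% for cortex.

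Against cerebellum, 12 members were called higher and 2 lower in hippocampus, beside 15.5% and 12.9% of all genes tested, and 13 were called higher and 4 lower in cortex, beside 16.8% and 17.9%. Without cerebellum sham 1, 16 members were called higher and 2 lower in hippocampus, beside 3355 and 2672 of 15419 genes tested (39.1%). In cortex 22 members were called higher and 3 lower, beside 3950 and 3793 of those genes (50.2%). All 4 anchoring proteins were then called higher in cortex than in cerebellum, against 1 (Akap5) with all libraries. With the replicate number as a block, the counts were 13 higher and 4 lower in hippocampus, where Prkacb was added as higher and Pde3a and Crtc2 as lower (edgeR adjusted p = 0.0309, 0.0481 and 0.0265), and 17 higher and 4 lower in cortex. The share of all genes called with the block is not given here.

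The calmodulin-dependent Pde1a stood at 37.2, 25.9, 34.7, 55.3 and 39.3 CPM in hippocampus, against 3.01, 5.73, 3.92, 4.26 and 5.13 CPM in cerebellum. The tissues did not overlap, and the log2 difference was 3.13 ± 0.23 (edgeR adjusted p = 4.163e-08). Akap5 stood at 30.5, 14.1, 11.5, 12.9 and 11.4 CPM in hippocampus, against 2.94, 0.769, 0.653, 0.368 and 0.576 CPM in cerebellum, again without overlap (3.91 ± 0.48, adjusted p = 8.538e-06, and 4.71 without cerebellum sham 1).

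Pde1b was higher by 3.18 ± 0.45 in hippocampus than in cerebellum on the log2 scale (edgeR adjusted p = 4.338e-05), and by 2.12 without hippocampus sham 1 and sham 2 (0.000118). Prkar2b was higher by 2.24, by 1.54 without those libraries (0.0370) and by 2.96 without cerebellum sham 1, and Pde8b was higher by 1.86. Pde2a was detected in 1 of 5 cerebellum sham libraries, at 0.415 CPM, while hippocampus libraries held 0.968 to 4.38 CPM and cortex libraries 1.63 to 3.55 CPM, and it was called higher in both (edgeR adjusted p = 0.000259 for hippocampus). The overlap of its exons with a second gene model applies here too. Pde4c was called higher in hippocampus as well (2.37 ± 0.66, adjusted p = 0.0124), and without hippocampus sham 1 and sham 2 its difference was 1.71, with no call. In cortex, the log2 differences from cerebellum were 3.64 for Pde1a, 4.65 for Akap5 and 2.52 for Prkar2b (5.45 and 3.26 for Akap5 and Prkar2b without cerebellum sham 1), and the RI-beta and C-beta genes Prkar1b and Prkacb were called higher as well (1.05 and 1.04), while Crtc2 was called lower in cortex (-0.70 ± 0.21, adjusted p = 0.0150). Pde1c, another calmodulin-dependent enzyme, was called lower than cerebellum in hippocampus (-1.96 ± 0.66, adjusted p = 0.0340) and in cortex (-3.64 ± 0.70, and -2.61 without cerebellum sham 1).

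Some of these calls rested on 1 or 2 libraries. Pde1c held 24 CPM in cerebellum sham 1 and 2.91 to 4.63 CPM in the other cerebellum sham libraries, and its difference between hippocampus and cerebellum was -0.94 without sham 1, with no call. Pde3a, a cyclic GMP-inhibited enzyme, was called lower in cortex than in cerebellum (-1.94 ± 0.70, edgeR adjusted p = 0.0422), and stood at -1.09 without that library, with no call. Pde7b was called higher in hippocampus than in cerebellum by 1.52, and by 0.54 with no call once hippocampus sham 1 and sham 2 were left out.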

How the data were processed

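Polyadenylated RNA was sequenced with a directional library kit, per the labels' protocols. The authors deposited whole read counts per Ensembl gene for each library, and the submitters' processing notes name Trimmomatic, STAR, featureCounts and build mm10; for the strand setting and the annotation release, the sources used here give nothing. From the deposited counts, 12 rows of assignment totals per file were left out of library sizes (reads in no gene were 2.62% to 9.22% of reads and reads in several genes 3.92% to 5.08%). Genes were named and exon lengths taken from GENCODE M21 (GRCm38), which held 55227 of the 55487 identifiers. edgeR 4.0.16 in R 4.3.3 was run with its expression filter, TMM scaling and robust quasi-likelihood fits, separately in each tissue for bulbectomy, in 1 fit of the 15 sham libraries for tissues, and in 1 fit of all 24 libraries for differences between tissues, with Benjamini-Hochberg adjustment over all genes tested and a threshold of 0.05. The scripts were tested on simulated data. Alternatives were DESeq2 1.42.0, another scaling, no expression filter, a replicate block and leaving out libraries. Leave-out fits of the differences between tissues and removal of the exon length and GC trend (mgcv 1.9.3) were added after seeing the data, as were sham levels without the libraries that stood apart. The members and the gene lists were chosen with earlier results of these data known. Named with full statistics are the members called in a bulbectomy comparison, or the 5 of smallest p where fewer than 5 were called, and in sham tissue comparisons up to 5 called members of largest change in each direction. From each list of other pathway genes up to 2 of smallest p are named, and all other members are given by role.

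Equal replicate numbers were compared through the correlation of same-numbered libraries' deviations from their group means. Between hippocampus and cerebellum sham libraries the correlations ran from 0.25 to 0.439. They ran from -0.104 to 0.454 between hippocampus and cortex sham libraries, and from -0.161 to 0.413 between cortex and cerebellum. The main tests did not pair libraries by number, so their tissue p-values ignore any such pairing. The replicate block was an alternative only. In cerebellum bulbectomy against sham, with only 2 shared numbers, the correlations were 0.234 and 0.323, which was too few pairs to take the numbers as paired. In hippocampus bulbectomy against sham they ran between -0.287 and 0.0341.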

Additional observations from a re-analysis of the deposited data

Results flagged for a closer look

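Within each group of 4 or 5 libraries, the highest or lowest library was compared with the rest by Dixon's gap test for each gene, which chance meets in about 1 in 20 groups. The CPM values used were on the scaling within each tissue. Of 136 such groups 27 met it, and 16 of them were cerebellum sham 1. That library held 2592 CPM of Adcy1, 47.1 of Adcy9, 27.5 of Pde1c, 10.8 of Pde3a, 13.3 of Pde3b, 89.8 of Pde4b, 38.6 of Pde4d and 254 of Prkacb. It also held 524 CPM of Prkar1a, 63.6 of Prkar2a, 7.55 of Prkar2b, 3.37 of Akap5, 138 of Akap6, 60.5 of Akap9, 175 of Akap11 and 43.0 of Creb1. Each was above the other 4 cerebellum sham libraries, and over genes its deviation correlated with exon length at 0.51.

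In cerebellum sham 3, Pde2a stood at 0.426 CPM, the other sham libraries holding none, and Pde4a at 110.1 CPM. Hippocampus sham 1 was high in Pde1c (5.12 CPM), Pde8a (21.6 CPM), Prkar2b (26.7 CPM) and Akap5 (27.6 CPM). Hippocampus bulbectomy 2 stood apart in Pde4c (0.237 CPM) and Prkar1b (1226 CPM), and bulbectomy 3 in Pde8b (23.8 CPM). Cortex sham 5 stood apart in Pde7b (15.5 CPM) and cortex sham 2 in Crtc2 (21.5 CPM).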

How the results depend on the processing

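The 3 members called in hippocampus became 9 with DESeq2, 1 with the replicate block, 5 without the expression filter, 5 with the exon length and GC trend removed, and 0 to 7 when single libraries were left out. None was called without bulbectomy 1 or without bulbectomy 2, and 7 were without sham 2. Over all genes, the 217 calls in hippocampus became 954 with DESeq2, 76 with the block, 439 with the trend removed, 348 without sham 1 and sham 2, and 27 to 477 when single libraries were left out. In cortex the count of members ran between 0 and 3, with 3 called without bulbectomy 1, and the 3 calls over all genes became 573 without that library. The 2 calls over all genes in cerebellum became 36 without sham 1, with no member among them. The single member called between hippocampus and cortex became 2 with DESeq2, 3 with the block and 0 without the filter. The count was 3 with the trend removed, and 0 to 3 when single libraries were left out. With the trend removed the 3 members (8.82%) stood beside 5.64% of all genes tested, and without cerebellum sham 1 they stood beside 7.14%. For the DESeq2, block and filter settings the share of all genes is not given here. Those counts therefore do not show a change particular to the members. DESeq2 called 39 genes in cortex and 12 in cerebellum, against 3 and 2 in edgeR. With the block, 17 members were called between hippocampus and cerebellum, against 14 without it, and 21 between cortex and cerebellum, against 17, and the counts in cortex and cerebellum bulbectomy comparisons stayed at 0. No result changed sign past its threshold under any of the settings run. Low counts limit Pde2a, Pde4c, Pde1c and Pde3a, which held few reads in most libraries. For Pde2a, where 64.3% of exon bases lie in a second gene model, the low counts cannot be put down to depth alone. Cerebellum is limited by its 2 bulbectomy libraries.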
